A study of Saccharomyces cerevisiae with 6 samples.

Results

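The small-subunit processome is the large RNA-protein particle that forms on nascent pre-ribosomal RNA in the nucleolus and carries out the early steps of making the small ribosomal subunit. It is built around the U3 small nucleolar RNA, with protein subcomplexes called UTP-A, UTP-B and UTP-C, and with RNA helicases, a GTPase and RNA-modifying enzymes that remodel the particle. In budding yeast its genes belong to the ribosome biogenesis regulon, whose transcripts are known to be abundant in fast growth and to drop when growth slows or cells are stressed. The 53 genes described here are a set of its factors chosen by standard gene name. They include the core proteins of the box H/ACA small nucleolar RNPs (CBF5, GAR1, NHP2), which modify ribosomal RNA and are not processome subunits in the narrow sense. Each name was matched to the open reading frame on the array, and all 53 were found among 6256 array genes. DBP4 is listed as HCA4 in the RefSeq gene table of assembly R64.

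The study compared BH13, a Saccharomyces cerevisiae mutant obtained by selection for resistance to coniferyl aldehyde, an inhibitory phenolic aldehyde from lignin, with its reference strain, called REF here. Both were grown without treatment in minimal medium at 30 °C and 150 rpm and harvested in log phase at an optical density of about 1.0, with 3 arrays per strain, and the comparison asks how the mutant's transcriptome differs from that of the reference. Genotype is the labelled difference, BH13 is a single selected mutant, and the labels used here name no allele in either strain. The labels call the samples replicates of the culture without saying that the cultures were started separately, so a p-value here reflects how far these particular samples scatter, and some of that scatter may be technical.

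Values are log2 spot intensity relative to the 75th percentile of the gene spots on the same array. Because each gene has its own probe, values are compared between strains and not between genes. Differences are BH13 minus REF with the standard error (SE) from limma (n = 3 arrays per strain), and adjusted p-values are Benjamini-Hochberg values over all 5890 genes tested, with a threshold of 0.05. Because whole cultures were lysed, fewer cells with a transcript and less transcript per cell cannot be told apart. The 75th percentile lay between 2301 and 4905 intensity units, and 91.4% to 93.8% of gene spots were well above background. All 53 genes were well above background on all 6 arrays, with signals of 258 to 105000 units and 0 saturated spots, so all of them passed the filter on dim probes. Over all genes, Pearson's r between arrays was 0.994 to 0.998 within a strain and 0.854 to 0.877 across strains. BH13 was hybridised on 1 slide and REF on 2 different slides with a separate scan day, so strain cannot be told apart from slide or scan day. Negative-control spots read 34.4 to 38.8 units above local background on the BH13 arrays and -3.85 to 3.11 units on the REF arrays. With normexp background correction, 53 of the 53 genes were called lower.

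Processome transcripts were lower in BH13 nearly throughout. By limma, 52 of the 53 genes fell (largest adjusted p = 0.00487), and 46 of them fell at least 2-fold. Across all genes tested, 43.3% were called lower and 17.5% were called lower by at least 2-fold. Of the 53 genes, 0 were called higher, and 0 were higher at an unadjusted p under 0.05, against 38.0% of all genes called higher. The 3 BH13 values lay below the 3 REF values for all 53 genes, RRP7 included, and such a separation was seen for 44.6% of all genes. The median difference was -1.60, a 3.04-fold lower signal, beside a median of -0.07 over all genes. The middle part of the list, from the lower to the upper quartile, ran from -2.15 to -1.29, and the whole list from -3.19 to -0.17. The standard deviation of the 53 differences was 0.67, whereas the SE of a single difference was 0.07 to 0.13.

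**Figure D1:**
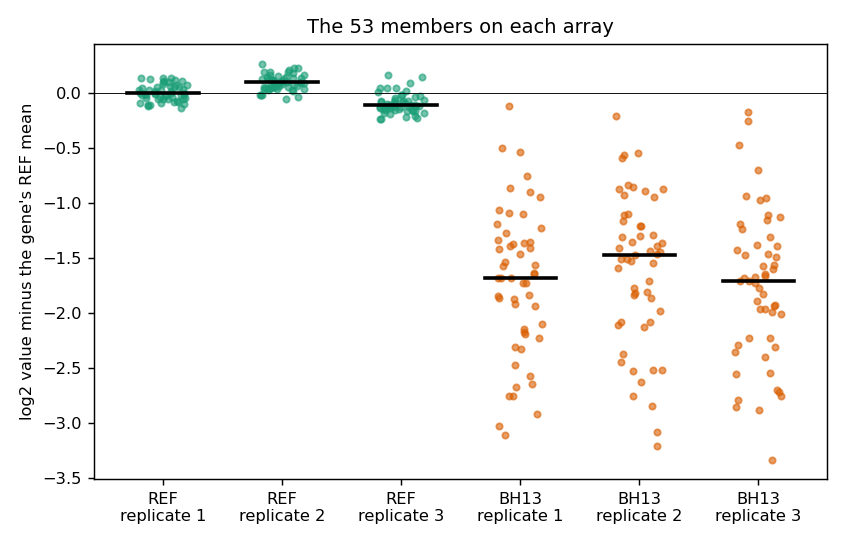
Each point is 1 of the 53 genes on 1 array, as log2 signal minus that gene's mean over the 3 REF arrays, and black bars are medians. The REF medians lie at -0.01, 0.09 and -0.11 and the BH13 medians at -1.68, -1.48 and -1.71. The narrow REF scatter follows from centring each gene on its own REF mean.

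Arrays of one strain differed little beside the strain difference. The median over the 53 genes was -0.90, -0.82 and -1.0 on BH13 replicates 1, 2 and 3, and 0.60, 0.71 and 0.48 on REF replicates 1, 2 and 3. The shifts within a strain were shared by many genes. REF replicate 3, the array on a slide apart from the other REF arrays, was the lowest REF array for 40 of the 53 genes, and BH13 replicate 2 was the highest BH13 array for 39. The median standard deviation between arrays was 0.12 in either strain. Duplicate spots of a probe on one array differed by a median of 0.06 and by at most 0.31.

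The fall was not uniform over the particle. To ask which genes fell more or less than the rest, each array was centred on its mean over the 53 genes and the fit was repeated on all genes. The mean difference was -1.69. By that test 18 genes were more negative than the mean, 19 were less negative and 16 could not be told apart from it, whereas of all genes 3.79% were more negative and 90.1% less negative than this mean. Because nearly all genes were called in this fit, the adjustment over all genes hardly raised the p-values of the 53. The split is thus close to one at unadjusted p-values, and calls near the threshold, such as those of UTP21, FAF1 and DBP8, are borderline. The mean contains each gene itself, which draws a gene slightly towards it. Each gene was read by a single probe sequence, and differences in how probes respond to a change in RNA level were not tested.

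**Figure D2:**
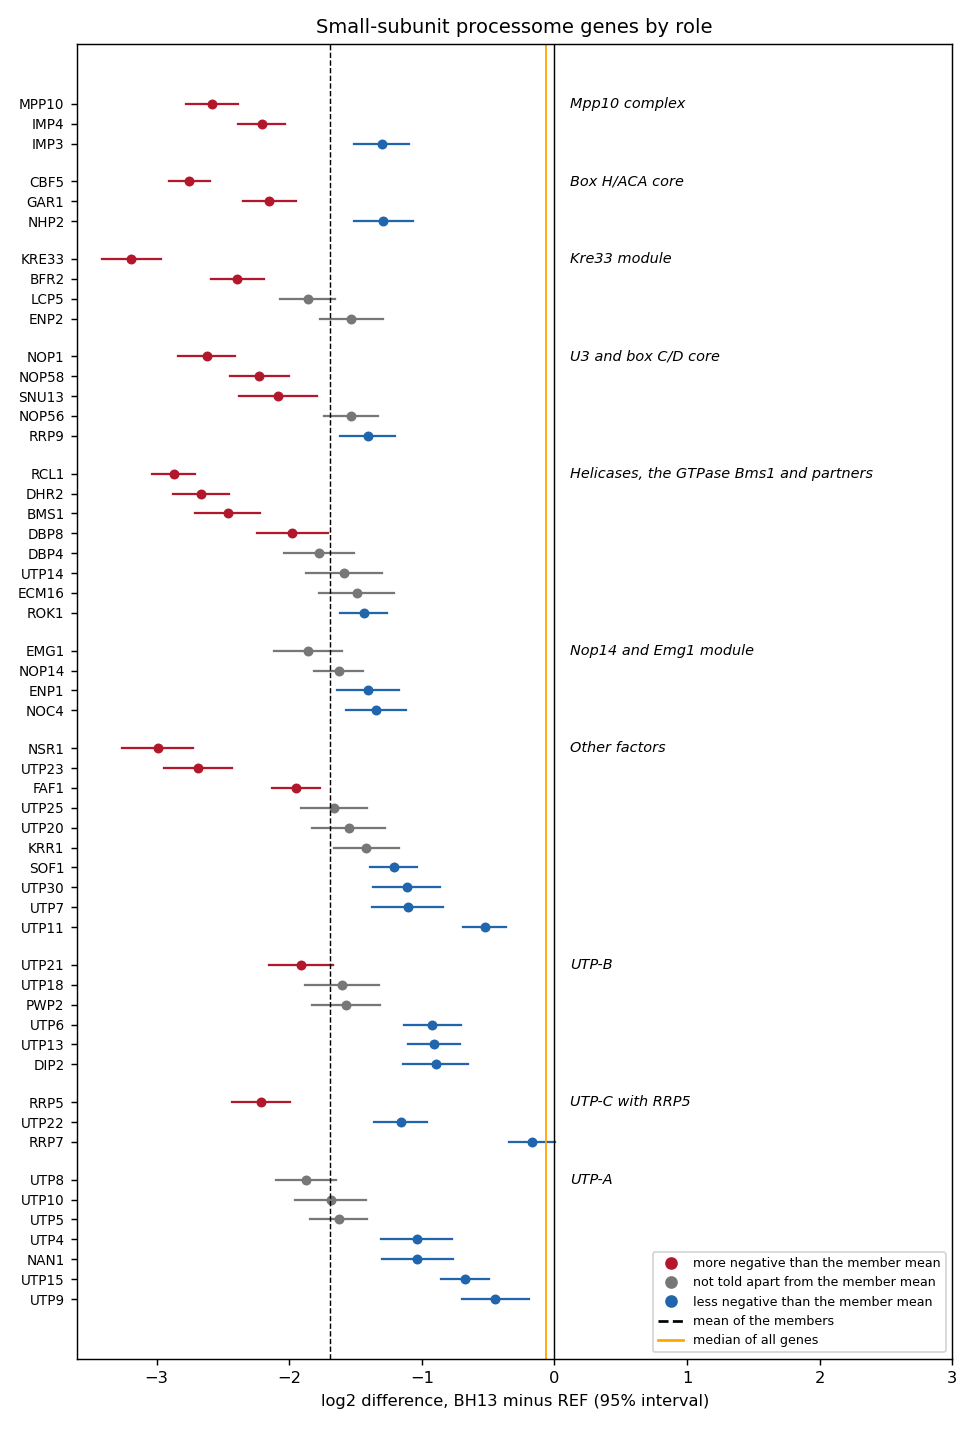
Points are log2 differences, BH13 minus REF, with 95% intervals for the 53 genes grouped by role, and groups are ordered by their median. Red genes were more negative and blue genes less negative than the mean of -1.69 (dashed line), and the orange line is the median of all genes. The interval of RRP7 alone reaches 0.

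UTP-A is the subcomplex that binds the start of the nascent transcript, and in yeast it is also needed for efficient transcription of ribosomal DNA. All 7 of its genes fell, with a median of -1.04 and a range from -1.88 to -0.45. None of the 7 fell more than the mean of the 53 genes, 4 fell less and 3 could not be told apart from it. UTP9 read 0.56, 0.54 and 0.84 on the BH13 arrays and 1.19, 1.15 and 0.94 on the REF arrays. Its highest BH13 value stayed just below its lowest REF value, and it fell by 0.45 ± 0.11 (SE, limma adjusted p = 0.00487). UTP15 read 0.00, 0.19 and 0.05 in BH13 and 0.78, 0.78 and 0.71 in REF, and it fell by 0.68 ± 0.08. UTP8 lay at the other end of the subcomplex, with -0.90, -0.84 and -1.07 in BH13 and 0.99, 1.04 and 0.78 in REF. It fell by 1.88 ± 0.10, which is 3.67-fold. UTP10, a very large scaffold protein built of helical repeats, and UTP5 fell by 1.69 and 1.63, and UTP4 and NAN1 fell by 1.04 and 1.03. Subunits of this one subcomplex thus covered a range of 1.43 log2 units, with UTP8, UTP10 and UTP5 near the mean and the other 4 less negative.

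UTP-B, which joins after UTP-A and is made largely of beta-propeller proteins, showed a similar split. All 6 genes fell, with a median of -1.25, and 3 of them fell less than the mean. The lower-responding trio was close together: UTP6 fell by 0.92 ± 0.09, UTP13 fell by 0.91 ± 0.09 and DIP2 fell by 0.89 ± 0.11. UTP13 read -0.28, -0.25 and -0.33 in BH13 and 0.67, 0.72 and 0.48 in REF. DIP2 read 0.16, 0.15 and 0.09 in BH13 and 1.05, 1.21 and 0.82 in REF, so neither gene's groups overlapped. UTP21 read -1.17, -1.09 and -1.22 in BH13 and 0.85, 0.87 and 0.53 in REF, and it fell by 1.91 ± 0.10. It was the UTP-B gene that fell more than the mean, by a small margin (limma adjusted p = 0.0498 against the mean). The 95% interval of that margin ran from -0.43 to -0.004, so the call was borderline. PWP2 and UTP18, which fell by 1.57 and 1.60, could not be told apart from the mean.

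UTP-C held the exception. RRP7, which encodes a UTP-C subunit, read -0.32, -0.42 and -0.38 in BH13 and -0.29, -0.17 and -0.16 in REF. The strain groups did not overlap, but the gap was small, and the difference of -0.17 ± 0.08 did not pass the test (95% interval -0.34 to 0.00, limma adjusted p = 0.0654). RRP7 was called lower with normexp background correction (difference -0.26, limma adjusted p = 0.0136) and without REF replicate 1 (-0.21, adjusted p = 0.0462), and over all alternatives its adjusted p ran from 0.0136 to 0.283. It lay 1.52 ± 0.11 above the mean of the 53 genes (limma adjusted p = 1.02e-06). Its partner UTP22 fell by 1.16 ± 0.09, less than the mean. RRP5, a large RNA-binding protein that acts with UTP-C and is needed for both ribosomal subunits, read -0.82, -0.75 and -1.0 in BH13 and 1.31, 1.47 and 1.28 in REF. It fell by 2.21 ± 0.09 and thus more than the mean.

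The remaining UTP-C genes were outside the list of 53. RRP36 fell by 0.54 ± 0.08. UTP-C also contains casein kinase 2, whose catalytic subunit genes CKA1 and CKA2 fell by 0.61 ± 0.07 and 0.87 ± 0.08 and whose regulatory subunit gene CKB2 fell by 0.51 ± 0.07. CKB1, encoding the other regulatory subunit, read 0.43, 0.58 and 0.44 in BH13 and 0.40, 0.28 and 0.25 in REF. Its difference of 0.17 ± 0.08 did not pass the test (limma adjusted p = 0.0807, with 0.0168 to 0.526 over all alternatives), although median centring and cyclic loess normalization called it higher. Casein kinase 2 has many substrates outside ribosome assembly.

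Transcripts for the proteins of the U3 particle were split around the mean, with 3 of 5 more negative, 1 less negative and 1 not told apart from it. U3 belongs to the box C/D class of small nucleolar RNAs, which share 4 core proteins, and RRP9 encodes the protein that is specific to U3. All 5 genes fell, with a median of -2.09. NOP1, the fibrillarin gene and methyltransferase of the class, read -0.51, -0.39 and -0.57 in BH13 and 2.08, 2.30 and 2.04 in REF. It fell by 2.62 ± 0.09, 6.17-fold, and NOP58 and SNU13 fell by 2.23 ± 0.10 and 2.09 ± 0.13, all of them more than the mean. SNU13 is shared with the spliceosome. NOP56, the partner of NOP58 in the core, fell by 1.53 and could not be told apart from the mean. RRP9 read -0.79, -0.82 and -0.89 in BH13 and 0.70, 0.61 and 0.42 in REF, and at -1.41 ± 0.09 it fell less than the mean. Of the 5 differences, that of the U3-specific gene was the least negative and that of the enzyme gene the most negative.

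The complex of Mpp10, Imp3 and Imp4 helps U3 to pair with the pre-ribosomal RNA. MPP10 read -3.07, -3.13 and -3.05 in BH13 and -0.40, -0.47 and -0.64 in REF, a fall of 2.58 ± 0.08. IMP4 fell by 2.21 ± 0.08, again more than the mean. IMP3 read -2.42, -2.24 and -2.47 in BH13 and -1.08, -0.98 and -1.16 in REF, and its fall of 1.30 ± 0.09 was less than the mean. No array of one strain overlapped the other strain for any of the 3 genes.

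The differences of the 3 box H/ACA core genes spanned 1.47 log2 units, and those of the Mpp10 complex 1.28. CBF5, the pseudouridine synthase, read -0.33 on each of the BH13 arrays and 2.40, 2.41 and 2.47 on the REF arrays. It fell by 2.75 ± 0.07, which is 6.75-fold, and GAR1 fell by 2.15 ± 0.09. NHP2 read 1.58, 1.84 and 1.57 in BH13 and 2.85, 3.03 and 2.97 in REF, and it fell by 1.29 ± 0.10. CBF5 and GAR1 fell more and NHP2 less than the mean. NOP10, the remaining core gene and not among the 53, fell by 1.20 ± 0.11.

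All 8 genes in the group of RNA helicases, the GTPase Bms1 and their partners fell at least 2-fold, with a median of -1.88. Of these 8 genes, 4 fell more than the mean and 1 fell less. RCL1, the cyclase-like partner of Bms1, read -3.14, -3.07 and -3.07 in BH13 and -0.28, -0.17 and -0.22 in REF. Its fall of 2.87 ± 0.07 was 7.32-fold, and BMS1 itself fell by 2.47 ± 0.11. DHR2, a DEAH-box helicase, read -2.62, -2.38 and -2.58 in BH13 and 0.08, 0.23 and 0.10 in REF, and it fell by 2.67 ± 0.09. The DEAD-box helicase gene DBP8 fell by 1.98 ± 0.12, also more than the mean. ECM16, whose helicase product releases U3 from the pre-ribosomal RNA, and UTP14, which activates that helicase, fell by 1.49 and 1.59, and DBP4 fell by 1.78. These 3 genes could not be told apart from the mean. ROK1, another DEAD-box helicase gene, read -1.28, -1.17 and -1.30 in BH13 and 0.15, 0.26 and 0.16 in REF, and its fall of 1.44 ± 0.08 was less than the mean.

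KRE33 had the largest fall of the 53 genes. It encodes the acetyltransferase that modifies cytidines of the small-subunit ribosomal RNA, and it read -2.65, -2.84 and -2.96 in BH13 and 0.41, 0.42 and 0.29 in REF. The fall of 3.19 ± 0.10 was 9.13-fold (limma adjusted p = 5.79e-08). Of its neighbours in the particle, BFR2 fell by 2.39 ± 0.09, more than the mean, and LCP5 fell by 1.86 ± 0.09. ENP2 read -1.23, -1.27 and -1.52 in BH13 and 0.26, 0.25 and 0.06 in REF, and it fell by 1.53 ± 0.10. LCP5 and ENP2 could not be told apart from the mean.

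The module around Nop14 and Emg1 had the narrowest range of any group, 0.51 log2 units over 4 genes. EMG1, the methyltransferase that acts on a pseudouridine of the small-subunit ribosomal RNA, read -1.03, -0.80 and -1.02 in BH13 and 0.89, 1.10 and 0.74 in REF. It fell by 1.86 ± 0.11, and NOP14, a scaffold protein, fell by 1.63 ± 0.08, and neither could be told apart from the mean. NOC4 read -1.21, -1.02 and -1.25 in BH13 and 0.13, 0.34 and 0.09 in REF. It fell by 1.34 ± 0.10 and ENP1 by 1.41 ± 0.10, both less than the mean.

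The remaining 10 factors had the widest range of any group, 2.47 log2 units. They are also the largest group, and a range tends to widen with the number of genes. NSR1, which encodes a nucleolin-like RNA-binding protein, read 1.27, 1.30 and 1.59 in BH13 and 4.51, 4.42 and 4.21 in REF. It fell by 2.99 ± 0.12, 7.97-fold, the fall next in size to that of KRE33. UTP23, needed to release the small nucleolar RNA snR30, read -2.41, -2.26 and -2.62 in BH13 and 0.15, 0.23 and 0.41 in REF and fell by 2.69 ± 0.11. FAF1 fell by 1.95 ± 0.08. NSR1, UTP23 and FAF1 fell more than the mean, while UTP25, UTP20 and KRR1, which fell by 1.66, 1.55 and 1.42, could not be told apart from it.

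UTP11 was at the opposite end of this group. It read -0.66, -0.75 and -0.64 in BH13 and -0.15, -0.14 and -0.17 in REF, values that were close within each strain and did not overlap. Its fall of 0.53 ± 0.07 was 1.44-fold (limma adjusted p = 0.000151). SOF1, UTP30 and UTP7 fell by 1.21, 1.12 and 1.11, also less than the mean. Besides RRP7, the 6 genes that differed by less than 2-fold were UTP9, UTP11, UTP15, DIP2, UTP13 and UTP6, and all but UTP11 belong to UTP-A or UTP-B.

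**Figure D3:**
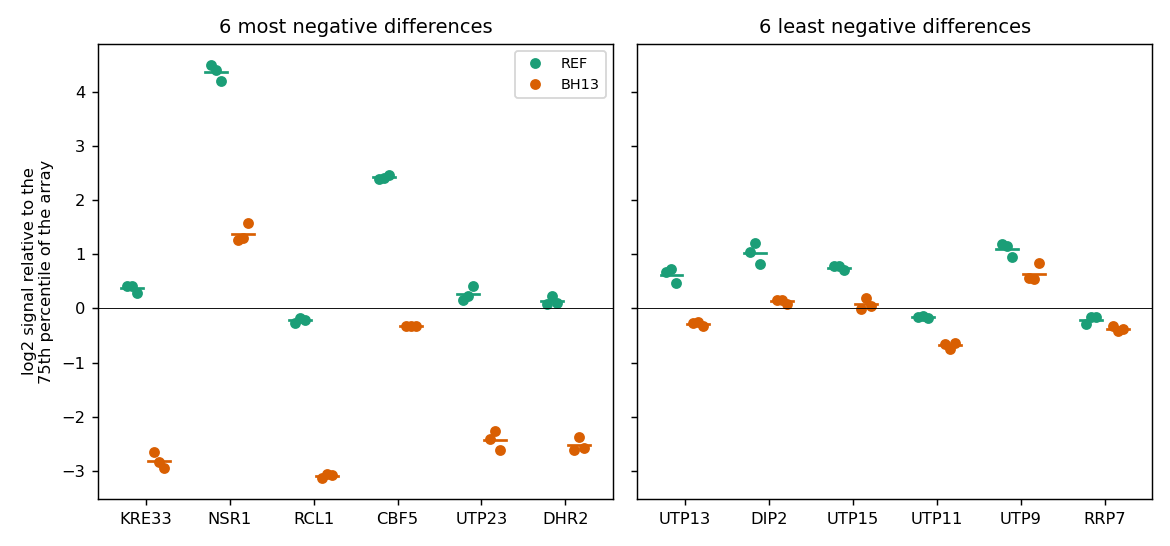
Points are log2 signals relative to the array's 75th percentile on each of the 3 arrays per strain, and bars are means. The left panel holds the 6 genes with the most negative differences, from KRE33 at -3.19 to DHR2 at -2.67, and the right panel the 6 with the least negative, from UTP13 at -0.91 to RRP7 at -0.17.

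Other genes of the pathway were read from lists chosen by role. Among 20 further processome genes, 18 fell and 0 were called higher (0 also at an unadjusted p under 0.05), with a median of -0.86 and 9 of them at least 2-fold lower. Of all genes tested, 43.3% were called lower and 17.5% lower by at least 2-fold. NOP9, an RNA-binding protein of the particle, read -3.07, -3.04 and -3.12 in BH13 and -0.53, -0.47 and -0.71 in REF and fell by 2.50 ± 0.08. ESF2, a cofactor of the helicase Dbp8, fell by 2.22 ± 0.10. FCF2 and CKB1 were the genes that did not pass. FCF2 read -0.60, -0.91 and -0.74 in BH13 and -0.56, -0.50 and -0.53 in REF, with no overlap. It differed by -0.22 ± 0.09 (limma adjusted p = 0.0542, with 0.0228 to 0.182 over all alternatives), and 5 alternatives called it lower, among them the fit without BH13 replicate 1 (-0.29, adjusted p = 0.0228).

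Genes acting after the processome, when the pre-40S particle matures and is exported, fell as well. All 12 genes of that list were lower, 11 at least 2-fold, with a median of -1.64, beside 43.3% and 17.5% of all genes. PNO1, which binds the end of the maturing small-subunit RNA, read -3.19, -3.42 and -3.30 in BH13 and 0.01, -0.24 and -0.27 in REF. It fell by 3.14 ± 0.10, and the kinase gene RIO1 fell by 1.76 ± 0.07. The least negative were SLX9, an export factor gene, which fell by 1.18 ± 0.09, and PXR1, a helicase cofactor gene, which fell by 0.77 ± 0.10.

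The large-subunit assembly list and the genes of RNA polymerase I, the enzyme that transcribes ribosomal DNA, resembled the 53 genes in their counts. All 43 assembly genes fell, with a median of -1.51. DBP9, a helicase gene, fell by 2.90 ± 0.08 and RRS1 by 2.69 ± 0.11, while the methyltransferase gene SPB1 and the assembly factor gene NSA2 fell by 0.42 ± 0.08 and 0.36 ± 0.09. All 7 polymerase genes fell, with a median of -1.54, from RPA43 and RPA12, whose differences were -2.39 and -1.96, to RPA190 and RPA34, at -1.12 and -0.99. Of 56 small-subunit ribosomal protein genes, 28 were lower and 23 higher, with a median of -0.29. Their share called lower, 50%, was near the 43.3% of all genes, of which 38.0% were higher. Of 81 large-subunit ribosomal protein genes, 51 were lower and 14 higher, with a median of -0.40, and the share called lower was 63.0%. The most negative were RPS28B (-1.71 ± 0.12) and RPS6B (-1.41 ± 0.10) of the small subunit and RPL21A (-2.23 ± 0.10) and RPL20A (-1.49 ± 0.08) of the large. The most positive were RPS10B (1.72 ± 0.08), RPS10A (1.61 ± 0.08), RPL29 (1.60 ± 0.18) and RPL39 (1.60 ± 0.11). Many of them have a near-identical duplicate that one probe may read as well. No test was made between lists.

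**Figure D4:**
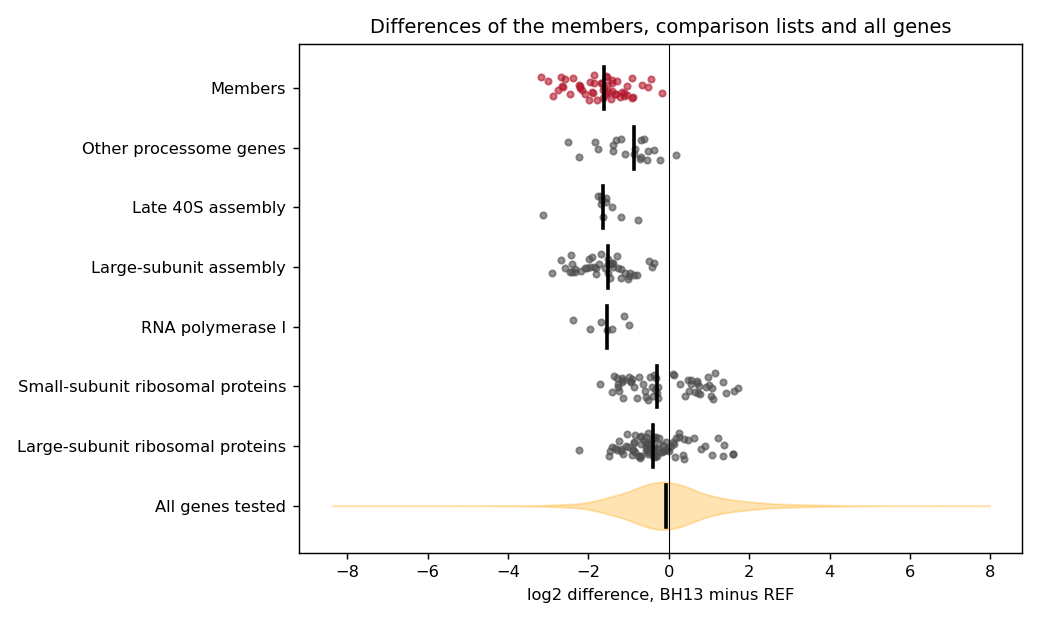
Each point is the log2 difference, BH13 minus REF, of 1 gene, black bars are medians, and the shaded shape is the distribution over all 5890 genes. The 53 genes (median -1.60), late small-subunit assembly (-1.64), large-subunit assembly (-1.51) and polymerase I genes (-1.54) lie left of 0, while both sets of ribosomal protein genes straddle it.

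Among 8 regulators of these genes, 6 fell and 0 were called higher (0 also at an unadjusted p under 0.05). TOD6 and DOT6 encode related repressors that bind the promoter element shared by many ribosome biogenesis genes. TOD6 read -2.20, -2.10 and -2.37 in BH13 and 0.26, 0.33 and 0.05 in REF, and it fell by 2.43 ± 0.10. DOT6 read -1.17, -0.78 and -1.09 in BH13 and -0.46, -0.25 and -0.26 in REF, with no overlap, and it fell by 0.69 ± 0.12. STB3, a repressor acting through another shared element, fell by 0.33 ± 0.07. FHL1 and its partner IFH1, activators of ribosomal protein genes, fell by 1.34 ± 0.09 and 0.78 ± 0.09, and SCH9, a kinase downstream of TOR complex 1, fell by 0.55 ± 0.12. SFP1, an activator of ribosome biogenesis genes, read -1.92, -1.65 and -1.81 in BH13 and -1.73, -1.39 and -1.58 in REF. The SFP1 groups overlapped, and the difference of -0.23 ± 0.11 did not pass the test (limma adjusted p = 0.0895, with 0.0218 to 0.331 over all alternatives). SFP1 was called lower with replicate number as a block (limma adjusted p = 0.0218), without BH13 replicate 2 (adjusted p = 0.0491) and without REF replicate 1 (adjusted p = 0.0425). CRF1, a corepressor of ribosomal protein genes, read -5.71, -5.71 and -5.77 in BH13 and -5.88, -6.41 and -5.58 in REF, and the groups overlapped. It differed by 0.23 ± 0.18 (limma adjusted p = 0.265), and its sign turned with quantile and cyclic loess normalization. Without REF replicate 3 it was called higher, at 0.42 (limma adjusted p = 0.0286, the lowest of a range up to 0.95). CRF1 had the lowest signals of the 8 regulators, and negative-control spots read higher on the BH13 than on the REF arrays. The part of that offset in the CRF1 difference was not tested. Values of all 8 regulators are transcript levels, and the activity of the proteins was not measured.

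Marker genes of other cell states moved with strain as well. Of 12 stress genes that are known to rise when growth slows, 12 were higher in BH13. Their summed signal, as log2 relative to the 75th percentile, was 6.16 to 6.30 in BH13 and 1.92 to 2.56 in REF. All 7 a-cell genes and all 10 haploid genes were lower. Across all genes tested, 38.0% were called higher and 43.3% lower, and these marker lists were chosen with earlier results of these data known. The summed a-cell signal was -1.86 to -1.81 in BH13 and 2.91 to 2.97 in REF, and the summed haploid signal was -0.69 in BH13 and 2.93 to 2.95 in REF. On the BH13 arrays MFA2, AGA2 and HO did not rise well above background. The part of these cell states in the lower processome transcripts was not tested.

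The authors' deposited table of processed values holds 1325 of the array's 6256 probes, or 21.2%, and 41 of the 53 genes, or 77.4%. In the authors' deposited table the differences of those 41 genes ran from -3.13 for KRE33 to -1.10 for UTP30, within 0.08 of the values from the scanner files. Limma fitted to that table called all 41 lower, but it called every probe there, 744 lower and 581 higher. A lower call in that table thus adds nothing to the differences themselves. The 12 genes absent from the authors' deposited table had differences of -1.41 to -0.17 in the scanner files. The smallest difference of any probe in the authors' deposited table was 0.92 in size, so small differences are not represented there. Some absent genes had larger differences than that in the scanner files, among them ENP1 (-1.41) and UTP22 (-1.16), beside -1.12 for UTP30, which was present. Why they are absent was not tested.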

How the data were processed

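Total RNA from 3 BH13 and 3 REF samples was labelled with Cy3 for one-colour Agilent arrays, per the labels' protocols. The deposited scanner files give spot intensity, already background-subtracted, and flags for each spot. Per the file headers they came from Feature Extraction version 10.7.3.1, whereas the submitters' processing notes name 9.1. The authors' deposited table holds log2 values with each gene centred near 0 over the arrays, as its values show, and the sources used here do not say how it was filtered or normalized.

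Control spots and outlier spots were removed, log2 processed signals were averaged over the 2 spots of each probe, and the array's 75th percentile was subtracted. A probe was tested if well above background on at least 3 of 6 arrays. That left 5890 of 6256 probes, and 366 were not tested. Systematic names matched the RefSeq table for 5756 probes. The strains were compared by limma 3.58.1 (lmFit and eBayes, R 4.3.3) in two-sided tests, and p-values were adjusted by Benjamini-Hochberg over all genes tested. The fit was tested on simulated data. In those data, 10 genes of the set were moved 2-fold up or down from the rest, and all 10 were called against the mean. So were 3 genes of the set that were not made to differ. Smaller margins against the mean, such as those of ROK1 and RRP9, were not simulated. Noise was drawn separately for each gene and array, so shifts shared by many genes were not simulated either. With 3 arrays a strain the smallest exact permutation p is 0.1, so that test was not used. Figures were drawn with matplotlib 3.10.9.

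The genes, lists and tests were chosen with earlier results of these data known. By rule, values per sample are given for the 6 most and 6 least negative genes, for the extremes of each role group and for those of the 53 that were not called. In the other lists the 2 most and 2 least negative genes and all regulators are named, some of them also with values per sample. RRP36, CKA1, CKA2, CKB2 and NOP10 were added to complete their complexes. Promoter sequence was not analysed here.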

Additional observations from a re-analysis of the deposited data

How the results depend on the processing

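The number of the 53 genes called lower was 52 or 53 under each alternative fitted to the scanner files, which were another background correction, 3 other scalings, 2 other dim-probe filters, another variance model, outlier spots kept, a replicate block, a random slide block and each array left out. None of the 53 was called higher under any of them, and the median ran from -1.68 to -1.52. RRP7 was least negative in each of these fits. KRE33 was the most negative in each, except with normexp background correction, where NSR1 was. Some alternatives could hardly move the 53 genes. None of their spots was flagged as an outlier, and all 53 were well above background on every array. Keeping outlier spots or changing the dim-probe filter therefore left their median unchanged. No slide held both strains, so the slide block could not separate strain from slide. Between 15 and 19 genes were more negative and 16 to 20 less negative than the mean. Of 24 named genes, 424 of 426 values stayed on their side of the threshold. The other 2 values were those of RRP7 given above. The labels do not say that replicate numbers pair the samples. Deviations from the strain means correlated at 0.13, 0.24 and 0.00 between same-numbered arrays and at -0.21 to 0.09 between the others. With 3 arrays per strain, these values cannot decide whether the numbers mark pairs. With the replicate block 52 of the 53 genes were lower, as were 2576 of all genes, with 2270 higher. The block changed the call of SFP1, which was then lower (-0.23, limma adjusted p = 0.0218). The removal of spots whose background was uneven was an alternative chosen after seeing the data.

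The authors' deposited table holds fewer genes, and its medians and counts are therefore over other sets. Its median over 41 of the 53 genes was -1.84, and 744 genes were lower and 581 higher, so that each of its 1325 probes was called. Lower genes in it numbered 7 among further processome genes (median -1.77), 2 among regulators (-1.86), 9 among small-subunit (-1.30) and 7 among large-subunit ribosomal proteins (-1.32), and its medians were -1.89 for large-subunit assembly and -1.67 for polymerase I. Quantile normalization moved the medians to -1.58 for polymerase I, -0.41 for small-subunit and -0.52 for large-subunit ribosomal proteins, and cyclic loess to -0.79 for further processome genes, -0.51 for regulators and -1.46 for polymerase I. The polymerase I median was -1.51 with median centring and -1.61 without spots of uneven background. With 1 array left out, the medians ran from -0.91 to -0.81 for further processome genes, -0.72 to -0.55 for regulators, -1.61 to -1.51 for large-subunit assembly and -1.60 to -1.43 for polymerase I. CRF1 turned to -0.24 with quantile and -0.045 with cyclic loess normalization, and the cause was not tested.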

Other observations

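Of the 53 genes, 21 have a protein-coding neighbour in the RefSeq gene order of assembly R64 that is transcribed away from them, so that both genes start from the same intergenic region. Of those 21 neighbours, 8 were lower in BH13, 7 higher and 6 not called, and their median difference was 0.03, while all 21 processome genes at these sites fell. The share of neighbours called lower, 38.1%, was close to the 43.3% of all genes. RPS10B, a ribosomal protein gene beside RRP5, rose by 1.72 ± 0.08, although its near-identical duplicate may be read by the same probe, and RRP5 fell by 2.21. The splicing factor gene SYF2, beside UTP8, rose by 0.97 ± 0.15. FYV6, beside KRE33, rose by 0.92 ± 0.12. On the other side, ATP5, an ATP synthase subunit gene beside BFR2, fell by 1.54 ± 0.11, and HIS6, a histidine synthesis gene beside FAF1, fell by 1.12 ± 0.10. All of these differences passed the limma threshold over all genes. The neighbours named were chosen after their values were seen.

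The differences of the 53 genes had no visible relation to coding length, which ran from 381 to 7482 bases in the RefSeq table. Across the 53 genes, which are not independent replicates, Pearson's r was -0.01 and Spearman's rho was 0.03.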
